A study of Mus musculus with 2 samples.

Results

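A set of 10 genes of dendritic cells and of class II of the major histocompatibility complex (MHC), which presents peptides to helper T cells, was read in mouse tumours that had received empty or drug-loaded nanoparticles. They were chosen by name: 6 dendritic cell identity genes (Xcr1, Clec9a, Zbtb46, Flt3, Batf3 and Irf8), and the class II chains H2-Aa, H2-Ab1 and H2-Eb1 with the invariant chain Cd74. All 10 had a row among the 26600 named genes of the deposited table. The tumours were CT26, a colon carcinoma line of the BALB/c strain, implanted subcutaneously in BALB/c mice and labelled WT, and all mice carried such a tumour of about 200 mm3. The Empty NP group received nanoparticles without drug, and the FuOXP NP group received nanoparticles carrying FuOXP at 10 mg/kg, a conjugate of 5-fluorouracil and oxaliplatin. Both were injected into a vein 3 times at intervals of 5 days, and tumours were taken 24 hours after the last dose. The labels give 3 mice per group, and the data hold 1 library per group, with no statement on pooling. Differences were thus not checked by replicates, p-values are not given, and higher or lower speaks of these 2 libraries alone.

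Dendritic cells take up material from dying cells and present it to T cells. The conventional type that carries Xcr1 and Clec9a depends on the transcription factors Batf3 and Irf8 and is known in tumours for presenting captured antigen to CD8 T cells. Class II molecules are pairs of an alpha and a beta chain that bind peptides in endosomes. The invariant chain holds the groove closed until cathepsins cut it, and the transactivator Ciita switches on the chains and the invariant chain together through the X and Y boxes of their promoters. Macrophages and B cells make class II as well, so its chains do not mark dendritic cells alone.

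The Y box is shown here because the class II chain genes H2-Aa and H2-Eb1 both hold its letters, and so does Irf8. RefSeq (GRCm38.p6) gave promoter sequences for 8 of the 10 members, with a second start for Irf8. Each line gives 250 bases before the RefSeq start, read 5′ to 3′ on the strand of the gene, in lower case with the letters searched for in capitals. H2-Aa lies at chr17:34287824-34288073 on the minus strand, H2-Eb1 at chr17:34305617-34305866 on the plus strand and the first start of Irf8 at chr8:120736108-120736357 on the plus strand.
H2-Aa: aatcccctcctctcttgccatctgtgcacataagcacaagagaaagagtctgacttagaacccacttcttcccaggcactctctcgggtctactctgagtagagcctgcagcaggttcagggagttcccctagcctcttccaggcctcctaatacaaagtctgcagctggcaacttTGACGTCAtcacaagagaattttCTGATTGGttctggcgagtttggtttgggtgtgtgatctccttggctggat
H2-Eb1: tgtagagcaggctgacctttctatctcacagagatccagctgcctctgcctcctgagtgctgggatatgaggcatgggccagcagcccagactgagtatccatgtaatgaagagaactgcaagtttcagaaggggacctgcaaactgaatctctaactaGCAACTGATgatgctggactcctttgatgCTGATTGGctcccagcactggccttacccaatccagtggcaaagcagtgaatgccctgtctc
Irf8: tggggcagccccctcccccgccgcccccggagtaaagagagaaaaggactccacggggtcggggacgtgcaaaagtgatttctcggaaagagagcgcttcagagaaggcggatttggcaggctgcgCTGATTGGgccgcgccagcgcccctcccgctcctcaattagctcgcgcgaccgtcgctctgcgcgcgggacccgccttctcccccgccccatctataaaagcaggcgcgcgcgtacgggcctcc
Both strands were searched for the Y box (CTGATTGG), for an X1 box (GCAACNGAT), for the cyclic AMP response element (TGACGTCA), for the AP-1 site (TGANTCA) bound by Batf3 with its partners, and for an interferon-stimulated response element (GAAANNGAA). The Y box began 51 bases before the start in H2-Aa, 62 in H2-Eb1 and 124 in Irf8, and 3.82% of 32817 RefSeq promoter windows of that length hold it. H2-Eb1 also held the X1 letters, found in 0.350% of windows, and H2-Aa held the cyclic AMP response element, found in 1.55%. An AP-1 site stood in the window of Zbtb46, against 6.75% of all windows, and the interferon element, in 7.12% of all, was in none of the 8 members' windows. That Zbtb46 window, chr2:181424389-181424638, lies inside the span that GENCODE gives the gene, 181387762 to 181459426, and not before its outer end. The windows of Batf3 and of the second start of Irf8 lie inside their genes too. No searched letters lay in the windows of Xcr1, Clec9a, Flt3, Batf3 and the second start of Irf8, and none of the matches overlapped. Such matches describe the letters in the window only.

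Values were TPM (a transcript level per length, given as parts of a fixed total). The low values lay on whole reads divided by exon length, which gave read numbers for genes with an exon length, 448410 for Empty NP and 935293 for FuOXP NP. The typical gene stood lower in FuOXP NP: the median log2 difference on the log2(TPM + 1) scale was -1.44 over the 9488 named genes whose mean reached 1 TPM, and the 20 most abundant rows held 47.3% of the Empty NP total and 81.8% of the FuOXP NP total. Differences are therefore also given relative to that median gene, and read ratios beside a typical gene, the median of genes that had 50 reads or more, which was 3.19-fold lower. Of the epithelial genes looked up to check the carcinoma label, Epcam, Krt8, Krt19, Cdh1 and Cldn4 were listed at 0 in both libraries and Krt18 was at 2.54 TPM and 0. In whole tumour RNA, fewer cells of a type and less RNA per cell cannot be told apart.

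Xcr1, Clec9a, Zbtb46 and Cd74 were lower in the FuOXP NP library by more than the typical gene, with intervals that lay above the typical fold. H2-Eb1 had a high ratio too, but an interval that holds the typical fold. H2-Aa, H2-Ab1 and Irf8 differed about as much as the typical gene, Batf3 had a single read in all, and Flt3 was at 0 in both libraries. The group of identity genes had 87 Empty NP reads and 11 FuOXP NP reads, and the class II group had 41 and 7. On the TPM scale these are 14.8-fold (7.86 to 30.7) and 10.9-fold (4.86 to 28.9) lower. Intervals in parentheses are exact 95% Clopper-Pearson intervals on reads and cover counting error only.

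**Figure D1:**
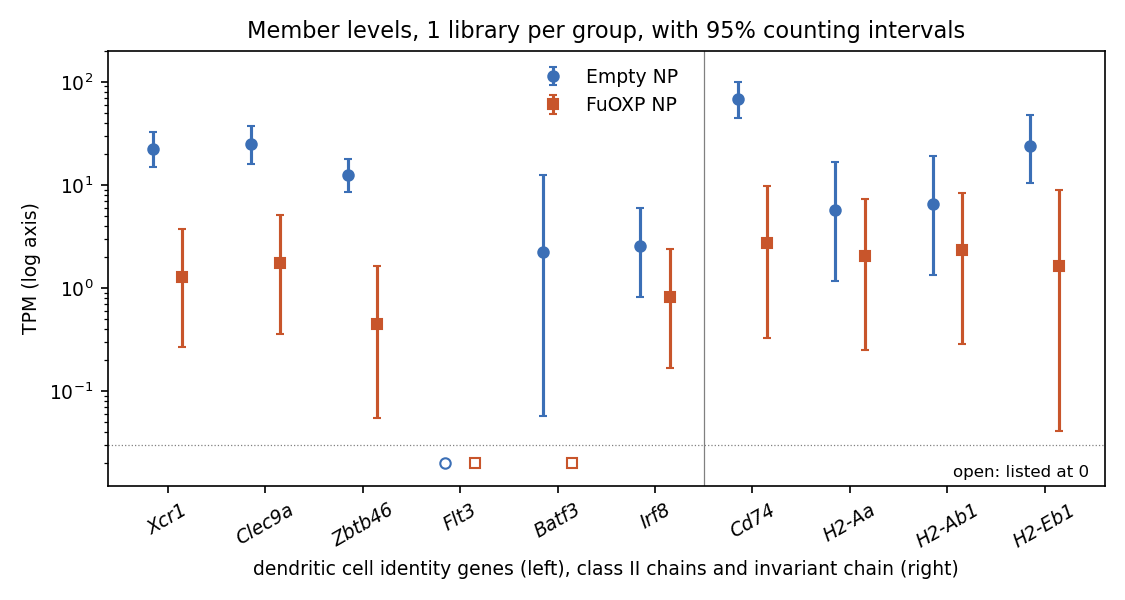
TPM of each of the 10 genes on a log axis in the Empty NP library (circles) and the FuOXP NP library (squares), with exact 95% Poisson intervals on the recovered reads, and open symbols for genes listed at 0. Xcr1, Clec9a, Zbtb46, Cd74 and H2-Eb1 have intervals that do not meet between the libraries, while those of Irf8, H2-Aa and H2-Ab1 do. These TPM are not centred, and the typical gene was itself 3.19-fold lower in FuOXP NP, a fold inside the ratio interval of H2-Eb1. The share of all genes whose intervals do not meet was not counted.

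Xcr1 encodes the receptor for the chemokine Xcl1, and lies on chromosome 9 from 123852315 to 123862029 (minus strand, GRCm38, GENCODE vM21, as for all positions of genes here). Its level was 22.4 TPM with empty particles (28 reads) and 1.29 TPM with FuOXP (3 reads). The FuOXP NP level was 17.4-fold lower (5.38 to 89.6), and on the log2(TPM + 1) scale the difference lay -1.92 from the median gene. Its ligand gene Xcl1 was listed at 0 in both libraries.

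Clec9a encodes a receptor for actin filaments exposed by dead cells and lies on chromosome 6 from 129408862 to 129424763 (plus strand). It stood at 24.9 TPM and 1.74 TPM, on 23 and 3 reads, 14.3-fold lower (4.32 to 74.5). Its difference lay -1.80 from the median gene. Exons of Clec9a share 184 bases with Clec1b, which was itself at 2.79 and 0.374 TPM on 4 reads and 1 read, so some reads may be shared.

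Zbtb46 encodes a transcription factor that separates conventional dendritic cells from macrophages and lies on chromosome 2 from 181387762 to 181459426 (minus strand). It stood at 12.6 TPM and 0.448 TPM, on 30 and 2 reads. The ratio was 28.0-fold (7.11 to 242), the highest read ratio of the 10 genes. On the log2(TPM + 1) scale its difference came to -3.23, which lay -1.79 from the median gene, close to those of Xcr1 and Clec9a, because the pseudocount weighs more on its low FuOXP NP level.

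The remaining identity genes were near the detection limit in both libraries. Irf8, a transcription factor of dendritic cells, monocytes and B cells on chromosome 8 from 120736358 to 120756694 (plus strand), was at 2.52 and 0.811 TPM on 5 and 3 reads. Its ratio of 3.11-fold (0.605 to 20.04) was near that of the typical gene, and its difference lay 0.48 above the median gene. Batf3, on chromosome 1 from 191097847 to 191108945 (plus strand), was at 2.23 TPM with empty particles on a single read and at 0 with FuOXP, where 3 reads would be 3.58 TPM. Flt3, the receptor for the growth factor that sustains dendritic cells, on chromosome 5 from 147330741 to 147400489 (minus strand), was listed at 0 in both. A count of 0 allows Flt3 a level of up to 1.73 TPM with empty particles and 0.927 TPM with FuOXP.

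The identity label thus rested on 3 genes: Xcr1, Clec9a and Zbtb46 held 81 of the 87 Empty NP reads and 8 of the 11 FuOXP NP reads. Flt3, Batf3 and Irf8 together held 6 and 3 reads, 3.73-fold lower (0.797 to 23.1), an interval that holds both the typical fold and that of Xcr1 alone. Both sets of 3 genes were formed by their values in these data, so their pooled folds are a description. Per length, Xcr1 and Clec9a stood above Irf8 in Empty NP, and their Poisson intervals (14.9 to 32.4 TPM and 15.8 to 37.3 TPM) did not meet that of Irf8 (0.820 to 5.89 TPM).

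Cd74 encodes the invariant chain and lies on chromosome 18 from 60803848 to 60812652 (plus strand). It was the most abundant of the 10 genes in both libraries, with 68.2 TPM in the Empty NP library and 2.71 TPM in the other. The ratio of its TPM values corresponds to 27 and 2 reads, 25.2-fold lower (6.33 to 219). Its difference lay -2.78 from the median gene, the lowest of the 10. Exons of Cd74 share 12 bases with Mir5107, which was listed at 0.

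H2-Eb1 encodes the beta chain of the I-E molecule and lies on chromosome 17 from 34305867 to 34316674 (plus strand). It was at 24.1 and 1.61 TPM, in the ratio of 8 reads to 1. This made it 14.9-fold lower (2.002 to 663), and the interval holds the typical fold. Its difference lay -1.82 from the median gene, between those of Xcr1 and Clec9a.

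H2-Aa and H2-Ab1 encode the alpha and beta chains of the I-A molecule and lie on the same chromosome, H2-Aa from 34282744 to 34287823 (minus strand) and H2-Ab1 from 34257689 to 34269419 (plus strand). H2-Aa was at 5.70 and 2.04 TPM, and H2-Ab1 at 6.53 and 2.33 TPM. Both had the ratio of 3 reads to 2, 2.80-fold lower (0.321 to 33.5). These chains of 1 molecule therefore lay together, 0.30 and 0.26 above the median gene, and both were lower as deposited.

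For Cd74 and the 3 chains the exon length of the annotation gave no whole reads, and the smallest pair of whole numbers with the TPM ratio was used, which implies lengths of 1410, 1874, 1637 and 1184 bases for Cd74, H2-Aa, H2-Ab1 and H2-Eb1. Multiples of these pairs fit the ratio as well and would narrow the intervals: with all pairs doubled the class II group was still 10.9-fold lower (6.16 to 20.9). GRCm38 is the genome of C57BL/6J, whose class II chains differ in sequence from those of BALB/c mice, and how many reads were lost for this was not tested.

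The 2 groups could not be told apart. The fold of the identity genes was 1.35 times that of the class II group (exact conditional 95% interval 0.411 to 4.14, counting error only). Without Cd74 the class II chains had 14 and 5 reads, 5.23-fold lower (1.78 to 18.5), and the ratio of folds was 2.79 (0.660 to 10.5). By medians relative to the median gene, the identity genes lay at -1.79 and the class II group at -0.78. The order of these medians turned when members under a mean of 5 TPM were left out, to -1.60 and -2.10.

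Within the class II group, Cd74 with H2-Eb1 had 35 and 3 reads, 21.8-fold lower (6.87 to 111), and H2-Aa with H2-Ab1 had 6 and 4 reads, 2.80-fold lower (0.664 to 13.5). The pairs were formed after the values were seen, by high and low ratio, so the ratio between their folds, 7.31 (0.977 to 63.7), is a description, and its interval holds 1. In Empty NP the order by TPM was Cd74, Clec9a, H2-Eb1, Xcr1, Zbtb46, H2-Ab1, H2-Aa, Irf8 and Batf3, and among these the step from Cd74 to Clec9a was the only one between neighbours whose intervals did not meet. In FuOXP NP no neighbours above 0 could be told apart by counting.

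**Figure D2:**
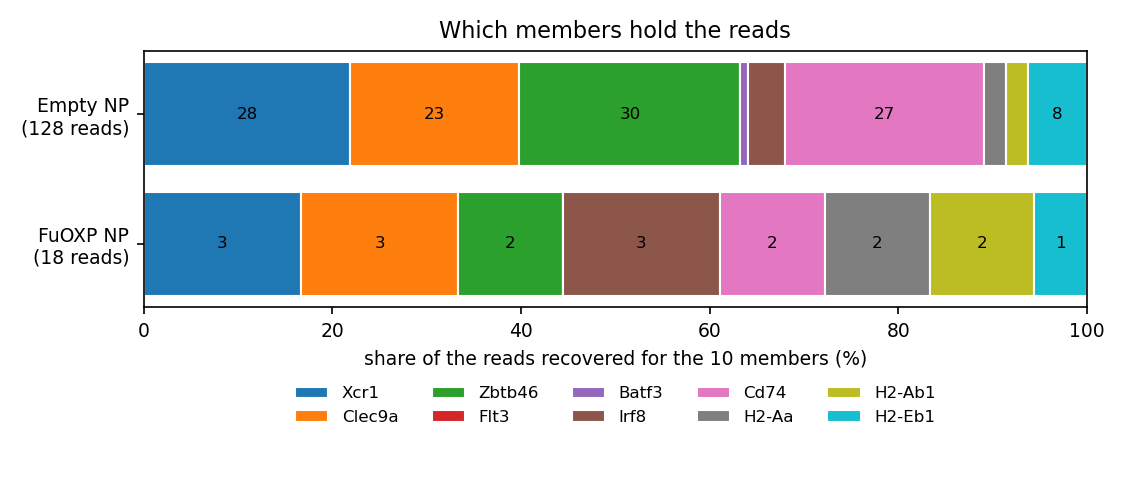
Share in percent of the reads recovered for the 10 genes that each gene held, with Empty NP above and FuOXP NP below, and read numbers printed in the wider segments. Xcr1, Clec9a, Zbtb46 and Cd74 hold most of the 128 reads in Empty NP, and the 18 reads in FuOXP NP are spread over 8 genes with 1 to 3 reads each.

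Against all genes, 8 of the 10 members were at least 2-fold lower as deposited on the log2(TPM + 1) scale, where 69.8% of the 9488 genes were, so this count says little of the members. Relative to the median gene, 5 members lay at least 2-fold below (Xcr1, Clec9a, Zbtb46, Cd74 and H2-Eb1), where 12.2% of genes did, and none lay 2-fold above, where 12.6% did. Flt3 did not pass the mean of 1 TPM. Zbtb46, Batf3 and Irf8 were under 1 TPM in FuOXP NP and passed only through their Empty NP level, so their differences as deposited could only be negative. Of the genes that passed, 13.0% were listed at 0 in FuOXP NP, as Batf3 was. The share of genes with a difference as low or lower was 0.601% for Cd74, 2.42% for Xcr1, 2.86% for H2-Eb1, 2.97% for Clec9a and 3.10% for Zbtb46. It was 38.4% for Batf3, 62.2% for H2-Ab1, 63.8% for H2-Aa and 71.2% for Irf8.

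**Figure D3:**
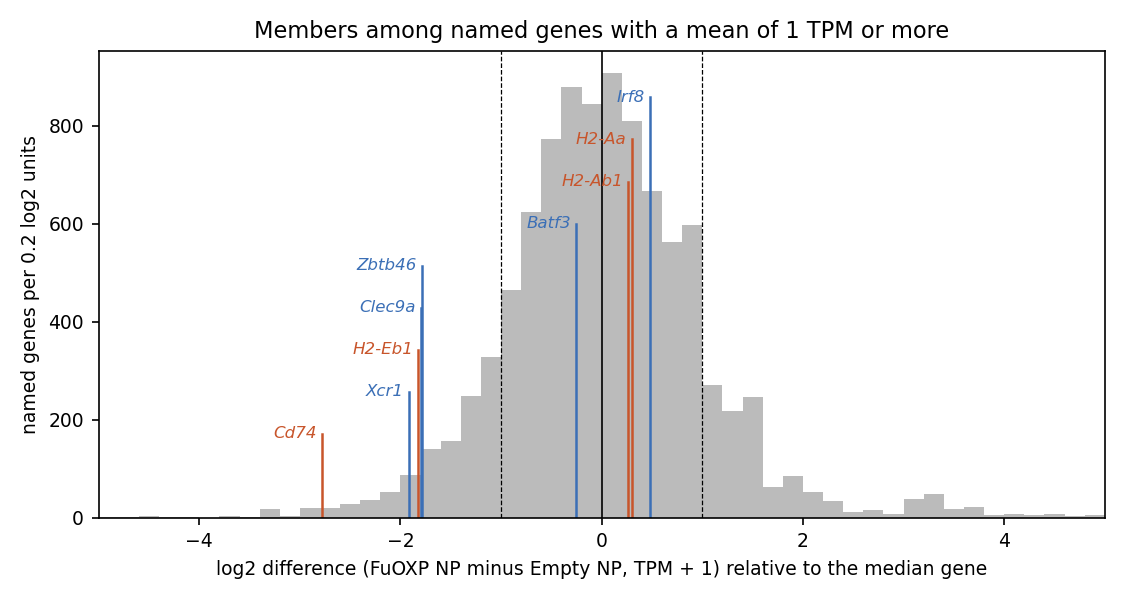
Distribution of log2 differences (FuOXP NP minus Empty NP, TPM + 1) relative to the median gene over the 9488 named genes whose mean reached 1 TPM (grey, genes per bin), with the 9 genes that passed as lines, identity genes in blue and class II genes in orange. Dashed lines mark 2-fold. Cd74, Xcr1, H2-Eb1, Clec9a and Zbtb46 lie left of the lower mark, and Batf3, H2-Ab1, H2-Aa and Irf8 lie near 0.

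Genes with few reads scatter widely, so the markers were also set beside genes of like depth, a range chosen after the values were seen. Among the 1108 genes with 20 to 40 reads in Empty NP the median was 4.07-fold lower, and 17.1% lay at least 2-fold below the median gene. In this range 39 genes had a read ratio at least as low as Xcr1 (3.52%), 55 as Clec9a (4.96%), 20 as Zbtb46 (1.81%) and 21 as Cd74 (1.895%). The differences of these 4 genes were therefore in the tail of genes of like depth and were not alone there.

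The proteases of the class II pathway lay less than 2-fold above the median gene, as H2-Aa and H2-Ab1 did. Cd74 and H2-Eb1 lay more than 2-fold below it. Of 12 genes of class II loading and endosomal processing, 10 were matched by symbol and 5 passed the mean of 1 TPM. All of these 5 are proteases, and all lay above the median gene, with a median of 0.46 relative to it and -0.98 as deposited. None lay at least 2-fold above or below it, where 12.6% and 12.2% of all genes tested did. Ctss, the cathepsin that trims the invariant chain, was at 99.7 and 47.8 TPM on 38 and 34 reads, 2.09-fold lower (1.28 to 3.42). Ctsl, a related cathepsin, was at 197 and 107 TPM, and its exons, like those of Ctsb and Ctsd, overlap those of other annotated genes. Lgmn, an asparagine-specific endosomal protease, was at 42.9 and 21.4 TPM on 28 and 26 reads, 2.01-fold lower (1.14 to 3.57). The intervals of Ctss and Lgmn lay below that of Cd74 and held the typical fold. The peptide-exchange genes H2-DMb1 and H2-DMb2 and their modulators H2-Oa and H2-Ob were listed at 0 in both libraries, and H2-DMa had no value above 0 with empty particles and 1.16 TPM with FuOXP.

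Of 8 genes of class II transcription, 7 passed the filter. At least 2-fold below the median gene lay 2 of them, where 12.2% of all genes tested did, and none lay above by as much. The list median was -0.38 relative to the median gene. Ciita, Rfxap and Nfya were under 1 TPM in FuOXP NP and passed only through Empty NP, so as deposited they could only be lower. Rfxank, a subunit of the factor that binds the X box, was at 250 and 100.03 TPM, and its exons overlap those of Nr2c2ap. Nfyb, a subunit of the factor that binds the Y box, was at 19.7 and 2.64 TPM on 28 and 7 reads, 7.47-fold lower (3.19 to 20.3). Creb1, which binds the X2 box beside it, was at 8.29 and 1.11 TPM on 32 and 8 reads. Ciita, singled out after its values were seen, was at 5.42 TPM with empty particles and 0 with FuOXP. Set against an assumed floor of 3 reads in FuOXP NP, its ratio was 9.03-fold, a value without counting error. The exact interval on 15 and 0 reads starts at 6.70-fold, where 15 is rounded from 14.5 by exon length. Exons of Ciita overlap those of Dexi. Pooled, the list had 371 and 230 reads, 3.01-fold lower (2.55 to 3.57), and without the genes whose exons overlap another, Rfxank, Rfx5 and Ciita, it had 72 and 19 reads, 7.07-fold lower (4.22 to 12.4).

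Of 17 interferon gamma response genes, which include inducers of class II, 16 passed the filter and 14 lay below the median gene. Of these, 6 lay at least 2-fold below, where 12.2% of all genes tested did. Ifngr2, Nlrc5, Ifng and Cxcl10 were under 1 TPM in FuOXP NP and passed only through Empty NP, so as deposited they could only be lower. The median of the 16 genes was -0.57 relative to the median gene. Pooled, they had 333 and 102 reads, 6.09-fold lower (4.87 to 7.68), and the 6 genes without exon overlap were 10.4-fold lower (5.84 to 19.9). The guanylate-binding protein gene Gbp3 was at 39.3 and 2.34 TPM, Gbp7 at 46.9 and 6.46 TPM and Gbp2 at 49.5 and 11.4 TPM. Ifng itself was at 5.90 TPM with empty particles, on 2 reads, and at 0 with FuOXP, and its exons overlap those of Gm49751.

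Other genes of the cell type that carries Xcr1 lay on both sides of the median gene. Of 11 listed, 7 passed the filter, with a median of -0.06 relative to the median gene. The 4 below it, Itgae, Id2, Nfil3 and Cadm1, share no exon bases with another gene. Of these, 3 lay at least 2-fold below, where 12.2% of all genes tested did. All 4, and Tlr3 as well, were under 1 TPM in FuOXP NP and passed only through Empty NP, so as deposited they could only be lower. The 3 above it, Tlr3, Ly75 and Snx22, do share exon bases, and none lay 2-fold above. Naaa and Wdfy4, which share no exon bases, did not pass and lay 1.49 and 1.89 above the median gene. Naaa was at 0.957 and 1.03 TPM on 1 read and 2 reads, and Wdfy4 at 0 and 0.363 TPM. Whether exon overlap bears on the side was not tested. Itgae, the integrin chain CD103, was at 9.33 and 0.833 TPM on 12 and 2 reads, 11.2-fold lower (2.49 to 103). The transcriptional regulators Id2 and Nfil3 were at 5.61 and 5.27 TPM with empty particles, on 4 and 3 reads, and both at 0 with FuOXP. Ly75, an endocytic receptor, was at 5.67 and 2.49 TPM on 11 and 9 reads. Snx22 was at 3967 and 2194 TPM, and its exons share bases with Ppib, listed at 59.4 and 25.8 TPM. How reads were divided between this pair was not tested. The 8 genes of the list without exon overlap had 29 and 8 reads, 6.77-fold lower (3.02 to 17.1), and the typical fold lies inside these bounds. Of 9 genes of the second conventional type, 5 passed and their median lay 0.01 from the median gene, and Sirpa was at 5.80 and 1.17 TPM on 8 and 3 reads, Notch2 at 6.94 and 1.95 TPM and Klf4 at 4.67 and 3.75 TPM. Cd209a, Clec10a, Mgl2 and Clec4a4 of that list were at 0 in both libraries.

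Markers of other cells that can carry class II were set beside these values. Of 16 macrophage and monocyte markers, 15 passed the filter, 10 of them above the median gene, and their pooled reads of 404 and 410 were 1.84-fold lower (1.60 to 2.12). Lyz2, a lysozyme of macrophages, was at 194 and 163 TPM, Csf1r, the receptor for their growth factor, at 114 and 46.9 TPM, and Apoe at 68.3 and 66.0 TPM. Of the B cell markers, Cd79b and Pax5 were at 0 in both libraries, and Cr2 held 42 of the 46 Empty NP reads and all 17 FuOXP NP reads. Ms4a1 and Cd79a were at 1.15 and 2.44 TPM with empty particles, on 2 reads and 1 read, and at 0 with FuOXP. All 10 pan-leukocyte markers passed, 6 below and 4 above the median gene, with 127 and 58 reads, 4.09-fold lower (2.97 to 5.68). This interval holds the typical fold of 3.19. Ptprc and Cd52 were singled out after their values were seen. Ptprc, the leukocyte marker CD45, had 41 and 11 reads, 6.96-fold lower (3.51 to 15.01), an interval above the typical fold. Cd52 was at 15.002 TPM with empty particles (5 reads) and 0 with FuOXP, -2.56 from the median gene, and its exons overlap those of Crybg2. Fcer1g, a chain of Fc receptors, was at 28.5 and 6.55 TPM, Tyrobp, an adaptor of myeloid receptors, at 26.7 and 8.58 TPM and Lcp1, an actin-bundling protein of leukocytes, at 15.7 and 5.22 TPM.

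Skeletal muscle transcripts were lower as well. All 11 muscle markers were above 0 in Empty NP, with 98 reads in all, and 2 reads were left in FuOXP NP. Listed at 0 in FuOXP NP were 9 of them, where 13.0% of all genes tested were. The 10 that passed the filter lay below the median gene, 8 of them at least 2-fold, where 12.2% of all genes tested did. These 10 were under 1 TPM in FuOXP NP and passed only through Empty NP, so as deposited they could only be lower. Myh4, a myosin of fast fibres, stood at 27.2 and 0.317 TPM, Tnnt3 at 22.5 TPM and 0, and Acta1 at 16.2 TPM and 0. Pooled, the list was 91.5-fold lower (24.7 to 766). Its part in the differences of the dendritic cell and class II genes was not tested.

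**Figure D4:**
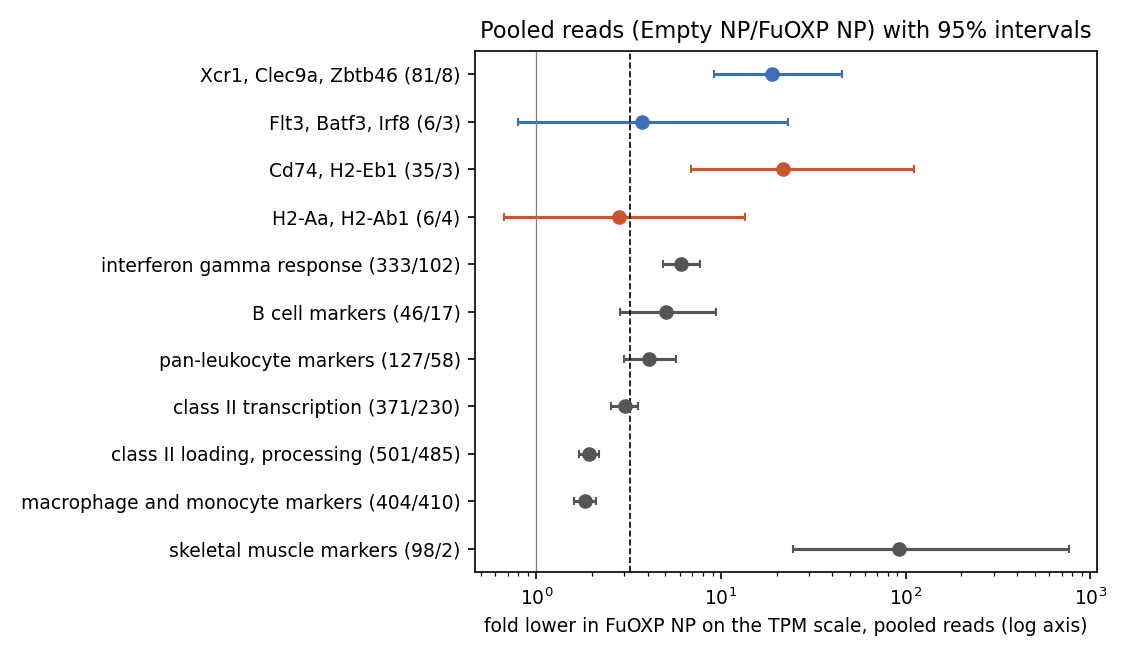
Fold by which pooled reads were lower in FuOXP NP on the TPM scale (log axis), with exact 95% Clopper-Pearson intervals, for the member groups (blue and orange) and for lists of related genes and other cells (grey), with reads in Empty NP and FuOXP NP in brackets. The dashed line marks the typical gene, at 3.19-fold. Xcr1, Clec9a and Zbtb46 (18.9-fold, 9.15 to 45.3) and Cd74 with H2-Eb1 lie right of it, class II processing and macrophage markers lie left of it, and muscle markers lie farthest right. The member groups shown were formed after their values were seen, so their place is a description.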

How the data were processed

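A single tumour library per group was read from both ends at 75 bases, to 73 M to 77 M reads each, per the labels. Tools listed without roles in the submitters' processing notes are Cuffdiff, Cufflinks 2.2.1 and STAR 2.6.1a, on GRCm38. The authors deposited TPM values, 1 column per group, summing to 1001107 and 1000649. Their annotation was not stated in the sources used here.

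Of 53927 rows, 22240 without a symbol, 26 with a symbol turned into a date and 55 that repeated the values of the row before were left out, and the highest row per symbol was kept. Differences were log2((FuOXP NP + 1)/(Empty NP + 1)), a scale that shrinks the change of low genes, centred on the median of genes whose mean reached 1 TPM. Reads were recovered as TPM times GENCODE vM21 exon length, divided by 3.56 TPM (Empty NP) or 1.91 TPM (FuOXP NP) per read and kilobase. Of genes under 10 reads, 80.9% and 80.8% were whole to within 0.01, against 2% by chance. Whether a unit is a read or a pair, and why the sums are far below the labelled depth, was not stated in the sources used here. Reads of related lists were rounded. The members and lists were chosen with earlier results of these data known. Besides the members, the 3 genes with the highest mean TPM of each related list were named by rule, and others after their values were seen. The steps were tested on simulated data. Alternatives covered pseudocounts, centring, filters, exon overlap and single members. Python 3.11.15, numpy 2.4.6, pandas 2.3.3, scipy 1.17.1 and matplotlib 3.10.9 were used.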

Additional observations from a re-analysis of the deposited data

How the results depend on the processing

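With 1 library per group no replicate could be left out, and no paired analysis was possible because each group has 1 sample. The median of the identity genes stayed below the median gene under the alternatives run, and the pooled levels of both groups did so as well. Without centring on the median gene the medians were -3.23 for the identity genes and -2.22 for the class II group, and the log2 ratios of summed TPM were -3.91 and -3.59, against -2.01 and -1.69 when centred on -1.90, the median log2 TPM ratio without a pseudocount. The median of the class II group turned to 0.26 above the median gene without its most extreme member Cd74, and to 0.26 as well over members without exon overlap, which also leaves out Cd74. When members had to reach a mean of 5 TPM, the identity median minus the class II median turned from -1.01 to 0.50, since Batf3 and Irf8, and H2-Aa and H2-Ab1, fell out. With a pseudocount of 0.1 TPM 6 members, and with 5 TPM 4 members, lay at least 2-fold below the median gene, against 5. Read pairs by exon length, chosen after seeing the data, gave 9.50-fold (4.93 to 20.1) for the class II group. Pooled reads of the epithelial list had a log2 ratio of -2.22, and of 0.0994 without exon overlap, on 1 and 2 reads, a setting also chosen after seeing the data. Counts of 8 reads or fewer limit Flt3, Batf3, Irf8, H2-Aa, H2-Ab1 and H2-Eb1 in both libraries, and counts of 3 or fewer limit all members in FuOXP NP.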

Other observations

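Genes of mature and migrating dendritic cells lay on both sides of the median gene. Of 13 listed, 6 passed the mean of 1 TPM, with 3 below it, 1 of them at least 2-fold, and 3 above, 2 of them at least 2-fold. Of all genes tested, 12.2% lay at least 2-fold below and 12.6% at least 2-fold above. Cd40, Cd83 and Cd274 passed only through their Empty NP level, and Cd86 only through its FuOXP NP level. Ccr7, the chemokine receptor that guides dendritic cells to lymph nodes, was at 1.80 TPM with empty particles (1 read) and 5.79 TPM with FuOXP (6 reads). Fscn1, an actin-bundling protein, was at 10.6 and 4.43 TPM on 9 and 7 reads. Cd83, a maturation marker, was at 6.65 TPM with empty particles (5 reads) and 0 with FuOXP, -1.49 from the median gene. Cd40, a receptor for T cell help, was at 3.14 TPM (3 reads) and 0. The interleukin 12 genes Il12a and Il12b were listed at 0 in both libraries.

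Of 11 growth factor and chemokine genes for dendritic cells, 4 passed, with 3 below and 1 above the median gene. All 4 were under 1 TPM in FuOXP NP and passed only through their Empty NP level. Csf2rb, a receptor chain for several growth factors, was at 4.49 and 0.801 TPM, Ccl3 was at 4.65 TPM on 1 read and then listed at 0, and Stat5a was at 4.49 and 0.802 TPM. Of 8 plasmacytoid dendritic cell markers, 5 were at 0 in both libraries, among them Siglech, while Bst2 was at 19.7 and 12.7 TPM, Runx2 at 12.9 and 2.81 TPM and Ccr9 at 4.53 and 1.62 TPM. Of the epithelial list, Vil1 was at 4.01 TPM and 0, and Areg at 0 and 1.57 TPM.

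Further class II loci were looked up after the values were seen. H2-Ea-ps was at 10.4 TPM with empty particles on about 3.02 reads by exon length. By TPM this was above H2-Aa (5.70) and H2-Ab1 (6.53) in that library, all on few reads. Its difference lay -2.07 from the median gene. It is annotated as a pseudogene on GRCm38, the genome of C57BL/6J, and its state in BALB/c mice was not tested. H2-Eb2 was at 1.61 TPM with empty particles. H2-Ea-ps and H2-Eb2 were both listed at 0 in FuOXP NP.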
